A study of Drosophila melanogaster with 15 samples.

Results

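Cytochrome P450 genes were followed in whole Drosophila melanogaster larvae of the third instar, from 3 mutant stocks and wild type. The set holds every probe set whose platform annotation gives exactly 1 symbol made of Cyp, a family number, a lower-case subfamily letter or letters and a member number. Cyclophilins named Cyp1 and Cyp40 do not have that form. P450 genes that go by a symbol of another form are not in the set or its counts either. The rule found 85 probe sets for 81 genes among the 13966 probe sets of the array that are not controls. Cyp9b2, Cyp9f2, Cyp49a1 and Cyp318a1 each had 2 probe sets, which are given by themselves.

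The 5 groups held 3 arrays each, and each array carried the RNA of a pool of 20 larvae taken 2 h after an injection of about 0.1 microliter. Relish E20, Dif1 and Dorsal1 mutants were injected with E. coli suspended in phosphate buffered saline (PBS), wild type larvae with the same bacteria, and a further wild type group with PBS alone. Relish, Dif and dorsal are the NF-kappaB transcription factors of the fly, Relish in the Imd pathway and Dif and dorsal in the Toll pathway, and the study asked how their loss alters the response to Gram-negative bacteria. The titles of all 9 mutant arrays hold the letters ctr although their treatment text names E. coli, and the treatment text was followed. The wild type genotype comes from the series design, and the labels do not give the genetic background of any stock. No mutant larvae injected with PBS were analysed here, so the mutation, the genetic background of its stock and any bacterial response cannot be told apart in a mutant. Whether the pools within a group were raised separately is not stated, so the p-values reflect the spread between these samples alone. Array titles give replicates 1 and 2 of the dorsal mutants, 2 and 3 of wild type with E. coli, and 2 and 3 of wild type with PBS the same number with different letters. The labels do not say whether a shared number marks repeat arrays of 1 pool. If it does, those 3 groups hold 2 samples each and the p-values below are too small, so the calls that were kept with such arrays averaged are named as well.

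Cytochrome P450s are heme enzymes that insert 1 oxygen atom into a substrate with electrons from a partner protein. In insects they make and break down the moulting hormone ecdysone, build cuticle hydrocarbons, and detoxify plant compounds and insecticides, mostly in midgut, Malpighian tubules and fat body. Insect P450s fall into the CYP2, CYP3 and CYP4 clans and a mitochondrial clan. The CYP3 clan (Cyp6, Cyp9, Cyp28 and relatives) and the mitochondrial Cyp12 family hold many detoxification enzymes, and the CYP2 and mitochondrial clans hold most of the ecdysone pathway enzymes.

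The CYP3 clan gave 39 of the 85 probe sets, the CYP4 clan 33, the mitochondrial clan 9 and the CYP2 clan 4. They spread over 20 families and 45 subfamilies. Signals are the linear, globally scaled intensities the authors deposited. A probe set was tested if it reached a signal of 160 on at least 3 arrays, which 75 members (72 genes) did. The 10 others were Cyp309a2, Cyp312a1, Cyp313a3, Cyp313b1, Cyp316a1, Cyp4ae1, Cyp4e1, Cyp6v1 and both Cyp318a1 probe sets, and 6 of them were under 160 on all 15 arrays. Cyp313b1 reached 534.5 on dorsal mutant replicate 3, against 43.0 to 110.0 on the other arrays. Of the 75 tested members, 37 were at 160 or above on all 15 arrays. The largest and smallest group means of a tested member lay over 2-fold apart for 46, over 4-fold for 16 and over 10-fold for 6. These folds are of linear signals, so a group mean near background can make them large. Cyp313a2, among the last, was at 3.7, 9.9 and 18.2 in PBS-injected wild type. The group with the highest mean was Dif mutant for 21 members, dorsal mutant for 19, Relish mutant for 18, wild type PBS for 11 and wild type E. coli for 6. Neither these counts nor the fold counts were made for all tested probe sets, so they lack a background. The median signal of an array was 284.8 to 340.3 on mutant arrays and 245.4 to 282.8 on wild type arrays. In bulk RNA from whole larvae, fewer cells that express a gene and less RNA per cell cannot be told apart.

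The Rel transcript was at 11.4 to 27.4 on the Relish mutant arrays, 1092 to 1273 in Dif mutants, 373.5 to 1307 in dorsal mutants, 3095 to 4981 in E. coli-injected wild type and 663.6 to 807.0 in PBS-injected wild type. The Dif and dl probe sets overlapped between groups and check no label. Scaling left a trimmed mean of 800.2 to 800.25 on each array. Arrays of 1 group correlated at 0.881 to 0.94. Dorsal mutant replicate 3 correlated at 0.881 and 0.884 with replicates 1 and 2, which share a title number and correlated at 0.932, and the Dif and Relish mutant arrays correlated at 0.884 to 0.9. The P450 signals of dorsal mutant replicate 3 deviated from the group means by a median of 0.36 on the log2 scale, against 0.17 to 0.32 on the other arrays. The median standard deviation within groups was 0.49 for the tested members and 0.48 for all tested probe sets, on the same scale.

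Differences were tested on log2(signal + 80) with limma across all 11427 probe sets that passed the filter, and a call is a Benjamini-Hochberg adjusted p under 0.05. Differences are therefore on the log2(signal + 80) scale, which understates the change of low signals. Across the 5 groups, the moderated F test called 20 of the 75 members (26.7%), against 835 of all tested probe sets (7.31%). At least 1 of the 8 directed comparisons called 26 members of 24 genes, which is 34.7%, against 11.5% of all tested probe sets, and Cyp4ac1 was called by the F test alone. These were 17 of 37 tested members of the CYP3 clan, 5 of 25 of the CYP4 clan, 3 of 9 of the mitochondrial clan and 1 of 4 of the CYP2 clan. By family, 10 of 22 tested Cyp6 probe sets, 4 of 7 Cyp9, 3 of 4 Cyp28, 2 of 6 Cyp12 and 5 of 20 Cyp4 were called in at least 1 directed comparison, and none of 4 Cyp313. The 4 Cyp9 probe sets are those of Cyp9b2 and Cyp9f2, out of 5 Cyp9 genes.

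**Figure D1:**
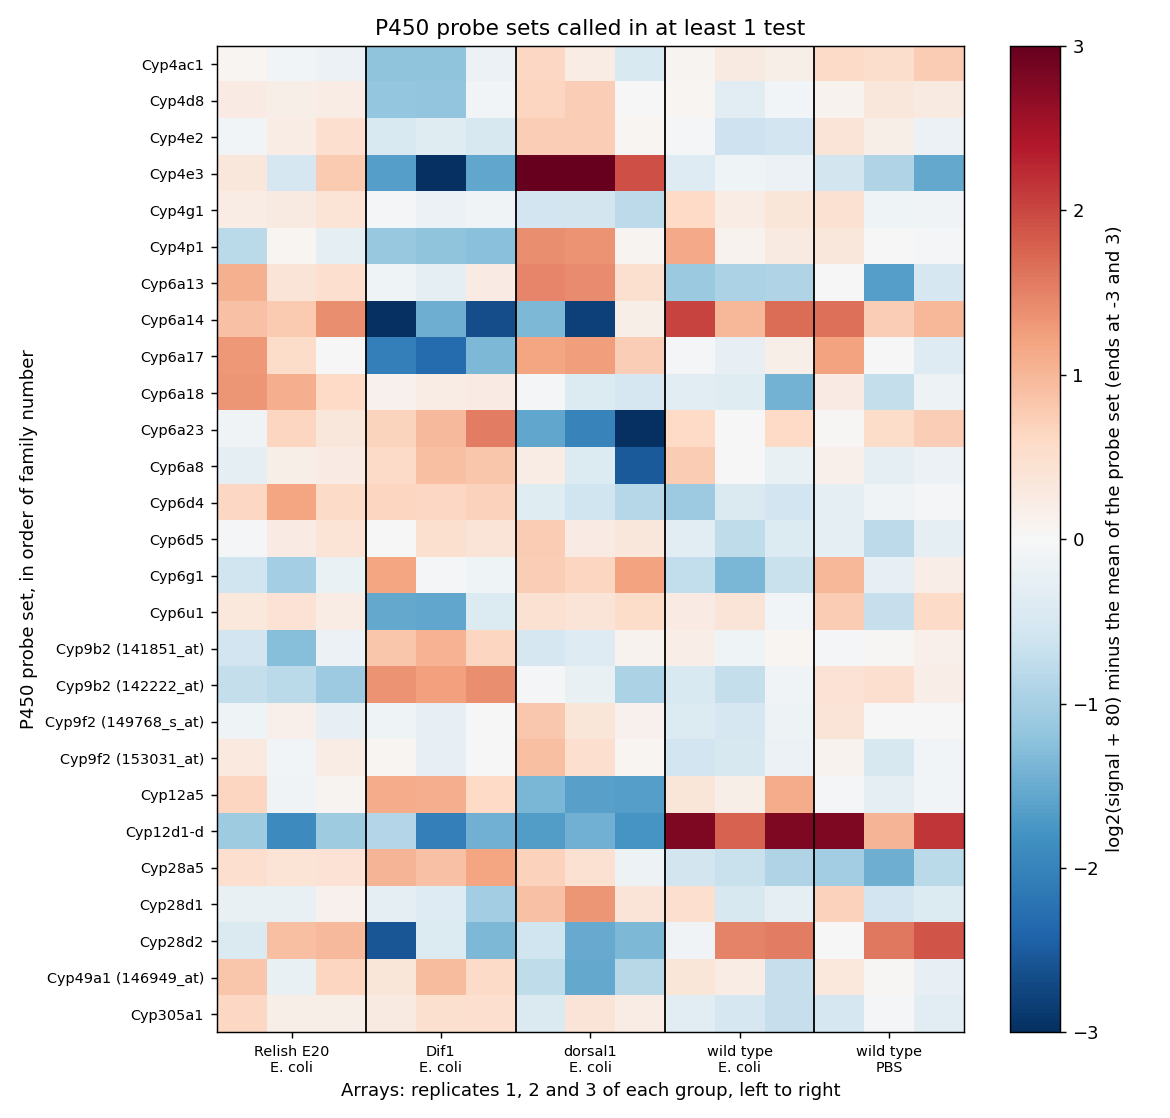
Signals of the 27 P450 probe sets called in at least 1 comparison, on 15 arrays, each as log2(signal + 80) minus the mean of its probe set. Columns are arrays by group, from Relish mutant to wild type PBS, and the colours end at -3 and 3. Cyp12d1-d is low on all 9 mutant arrays, and Cyp4e3 is high on the 3 dorsal mutant arrays.

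In Relish mutants against wild type, both with E. coli, 4 P450 probe sets were higher and 1 was lower. Cyp6a18, Cyp6d4, Cyp6a13 and Cyp28a5 rose and Cyp12d1-d fell. These 5 calls are 6.67% of the tested members, and 1.88% of all tested probe sets were called, 0.744% higher and 1.14% lower. Without Relish mutant replicate 1, or without wild type E. coli replicate 3, 3 calls were left. The median difference was 0.14 over the members and 0.09 over all tested probe sets.

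In Dif mutants against the same wild type arrays, 3 probe sets were higher (Cyp9b2 142222_at, Cyp28a5 and Cyp6d4). The 6 lower ones were Cyp12d1-d, Cyp6a14, Cyp28d2, Cyp6a17, Cyp4e3 and Cyp4p1. The 9 calls are 12.0% of the tested members, against a background of 2.68% (1.14% higher, 1.54% lower). The median difference was 0.23 over the members and 0.11 over all tested probe sets.

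In dorsal mutants, again against those wild type arrays, 8 probe sets were higher and 5 lower. Cyp4e3, Cyp6a13, Cyp6g1, Cyp28a5, Cyp6d5, Cyp4e2 and both Cyp9f2 probe sets rose, and Cyp12d1-d, Cyp6a14, Cyp6a23, Cyp12a5 and Cyp4g1 fell. The 13 calls are 17.3% of the tested members, against a background of 3.52% (1.64% higher, 1.88% lower). Leaving out dorsal mutant replicate 1 gave 8 calls, wild type E. coli replicate 2 gave 7 and wild type E. coli replicate 3 gave 8. Leaving out dorsal mutant replicate 3 gave 15. The median difference was 0.06 over the members and 0.10 over all.

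Between the mutant stocks, 5 members were called in Relish against Dif mutants (3 higher and 2 lower, background 1.15%, or 0.656% and 0.49%), 9 in Relish against dorsal mutants (7 higher and 2 lower, background 3.05%, or 1.57% and 1.48%) and 13 in Dif against dorsal mutants (6 higher and 7 lower, background 5.18%, or 2.34% and 2.84%). Without Relish mutant replicate 1 or Dif mutant replicate 2, 3 calls were left in Relish against Dif mutants. In Relish against dorsal mutants, 5 calls were left without Relish mutant replicate 1, dorsal mutant replicate 1 or dorsal mutant replicate 2. In Dif against dorsal mutants, 7 calls were left without Dif mutant replicate 2 and 8 without dorsal mutant replicate 2. Without dorsal mutant replicate 3 the counts were 8 in Relish against dorsal mutants, 17 in Dif against dorsal mutants and 22 by the F test. The mean of the 3 mutants differed from the mean of both wild type groups in 9 members (6 higher, 3 lower), against a background of 4.18% (1.96% higher, 2.22% lower). These comparisons share arrays, so their calls are not independent of each other.

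With the arrays of 1 title number averaged, 12 samples were left and fewer P450 calls were made. Cyp6a18, Cyp6d4 and Cyp12d1-d kept the call in Relish mutants against wild type with E. coli (4.0% of the members, background 0.823%). In Dif mutants Cyp9b2 (142222_at), Cyp6a14, Cyp28a5, Cyp6d4 and Cyp12d1-d kept it (6.67%, background 0.963%), and in dorsal mutants Cyp4e3, Cyp6a23, Cyp12a5 and Cyp12d1-d (5.33%, background 0.621%). Between mutants, Cyp9b2 (142222_at), Cyp4e3, Cyp6a14 and Cyp6a17 were kept in Relish against Dif, and Cyp4e3, Cyp6a23, Cyp12a5 and Cyp6d4 in Relish against dorsal (5.33% each, backgrounds 0.84% and 0.761%). Those 4 were also kept in Dif against dorsal mutants, with Cyp9b2 (142222_at), Cyp4p1 and Cyp6a17 (9.33%, background 1.33%). For the mean of the mutants, Cyp6a14, Cyp6d5, Cyp28a5, Cyp6a13 and Cyp12d1-d were kept (6.67%, background 1.3%), and the F test called 9 members (12.0%, background 1.93%). The other 31 of the 63 directed calls were lost with this averaging.

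**Figure D2:**
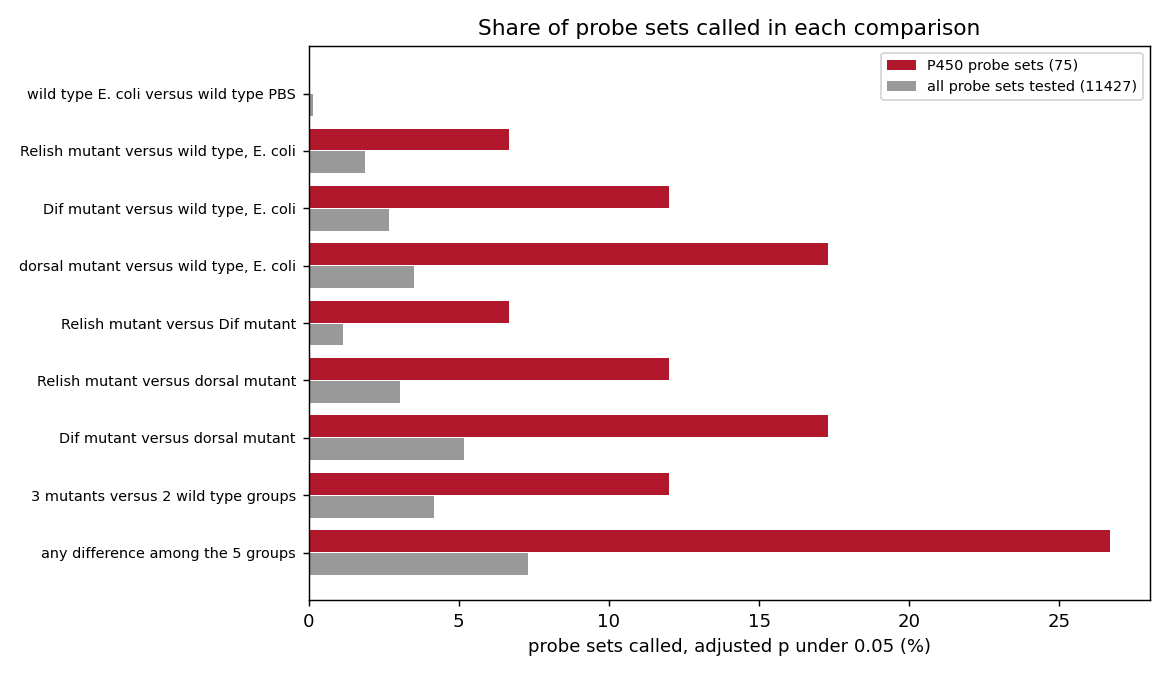
Share of tested probe sets called at an adjusted p under 0.05, in percent, for the 75 tested P450 probe sets and for all 11427 probe sets, in each of 9 comparisons. The bars read 26.7% and 7.31% for the F test, 17.3% and 5.18% for Dif against dorsal mutants, and 0% and 0.158% for E. coli against PBS in wild type.

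Wild type larvae with E. coli and with PBS were not separated in any P450 probe set by limma at this threshold. The call count was 0 of 75, against a background of 0.158% (0.149% higher, 0.00875% lower), and 9 members (12.0%) had an unadjusted p under 0.05, as had 4.73% of all tested probe sets. The smallest p belonged to a Cyp9b2 probe set (142222_at), at 7084, 5860 and 9033 with E. coli and 13234, 13796 and 11245 with PBS. Its difference was -0.81 ± 0.23 (SE), with an adjusted p of 0.363. Cyp6g1, which gives resistance to DDT and neonicotinoids when overexpressed, was at 1579, 973.9 and 1650 with E. coli and at 5437, 2236 and 3086 with PBS (difference -1.25, adjusted p = 0.397). In both, the 3 arrays with E. coli lay under the 3 with PBS. Of the 75 members, 13 had groups that did not overlap, 3 higher and 10 lower with E. coli, which is 17.3%, against 12.0% of all tested probe sets (6.39% higher, 5.58% lower).

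In the mitochondrial clan, Cyp12d1-d had the largest difference from wild type in each of the 3 mutant stocks among the members called there, apart from Cyp6a14 in Dif mutants. Cyp12d1 is an enzyme that many foreign compounds induce and whose overexpression gives tolerance to DDT, and some genomes carry it as a tandem pair, Cyp12d1-d and Cyp12d1-p. Its signals were 480.8, 235.3 and 482.3 in Relish mutants, 565.1, 202.8 and 354.7 in Dif mutants, and 288.5, 353.2 and 263.6 in dorsal mutants. They were 8086, 3920 and 8166 in E. coli-injected wild type and 8130, 2330 and 5156 in PBS-injected wild type. All 9 mutant arrays lay under all 6 wild type arrays. The difference from wild type with E. coli was -3.80 ± 0.41 in Relish mutants (adjusted p = 4.46e-05), -3.91 in Dif mutants (3.01e-05) and -4.09 in dorsal mutants (2.04e-05). The mean of the mutants differed by -3.70 ± 0.27 from the mean of both wild type groups (adjusted p = 1.99e-07), and these calls were kept without any single array.

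A second probe set carries the symbols of both Cyp12d1 copies and is therefore no member. It was at 987.8, 562.5 and 1147 in Relish mutants, 1798, 1113 and 1210 in Dif mutants, and 43.0, 157.9 and 697.8 in dorsal mutants. E. coli-injected wild type had 1994, 1667 and 2950, and PBS-injected wild type 2640, 714.7 and 1150. This probe set was lower in dorsal mutants (-2.97, adjusted p = 0.0037) and missed the threshold in Relish mutants (-1.23, 0.306) and Dif mutants (-0.64, 0.589). The 2 probe sets of these copies therefore gave different calls in Relish and Dif mutants, and the difference between the probe sets was not tested.

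Cyp12a5 was lower in dorsal mutants. Its signals were 429.7, 346.4 and 335.4 in dorsal mutants, against 1597, 1416 and 2749 in E. coli-injected wild type, 1177, 1004 and 1156 in PBS-injected wild type, and 1139 to 2761 in the other mutants. The dorsal mutant arrays lay below all others. The difference was -2.10 ± 0.27 from wild type (adjusted p = 0.000332), and Cyp12a5 was higher in Relish and Dif than in dorsal mutants by 1.76 (0.002) and 2.49 (6.74e-05). Its neighbour Cyp12a4, whose overexpression gives resistance to lufenuron, was at 5239, 5515 and 4678 in dorsal mutants and at 3797, 5066 and 6319 in E. coli-injected wild type, a difference of 0.05 (adjusted p = 0.935). Cyp12a4 was at 8936, 8347 and 6944 in Dif mutants, above all other arrays, with a difference from wild type of 0.69 that missed the threshold (adjusted p = 0.0777).

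Of the Cyp49a1 probe sets, 146949_at was at 109.1, 31.0 and 100.4 in dorsal mutants, 492.1, 196.1 and 424.4 in Relish mutants and 335.7, 537.7 and 395.3 in Dif mutants, with 119.7 to 331.3 in E. coli-injected wild type and 189.6 to 320.1 in PBS-injected wild type. It was higher in Relish than in dorsal mutants by 1.47 (adjusted p = 0.0494), a call lost without any of the 6 arrays except Relish mutant replicate 2, with adjusted p values of up to 0.171. It was higher in Dif than in dorsal mutants by 1.67 (0.0194), a call lost without Dif mutant replicate 2 or dorsal mutant replicate 2. The other probe set, 146950_at, was called in no comparison and ranged between 29.1 and 461.7 over the arrays.

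**Figure D3:**
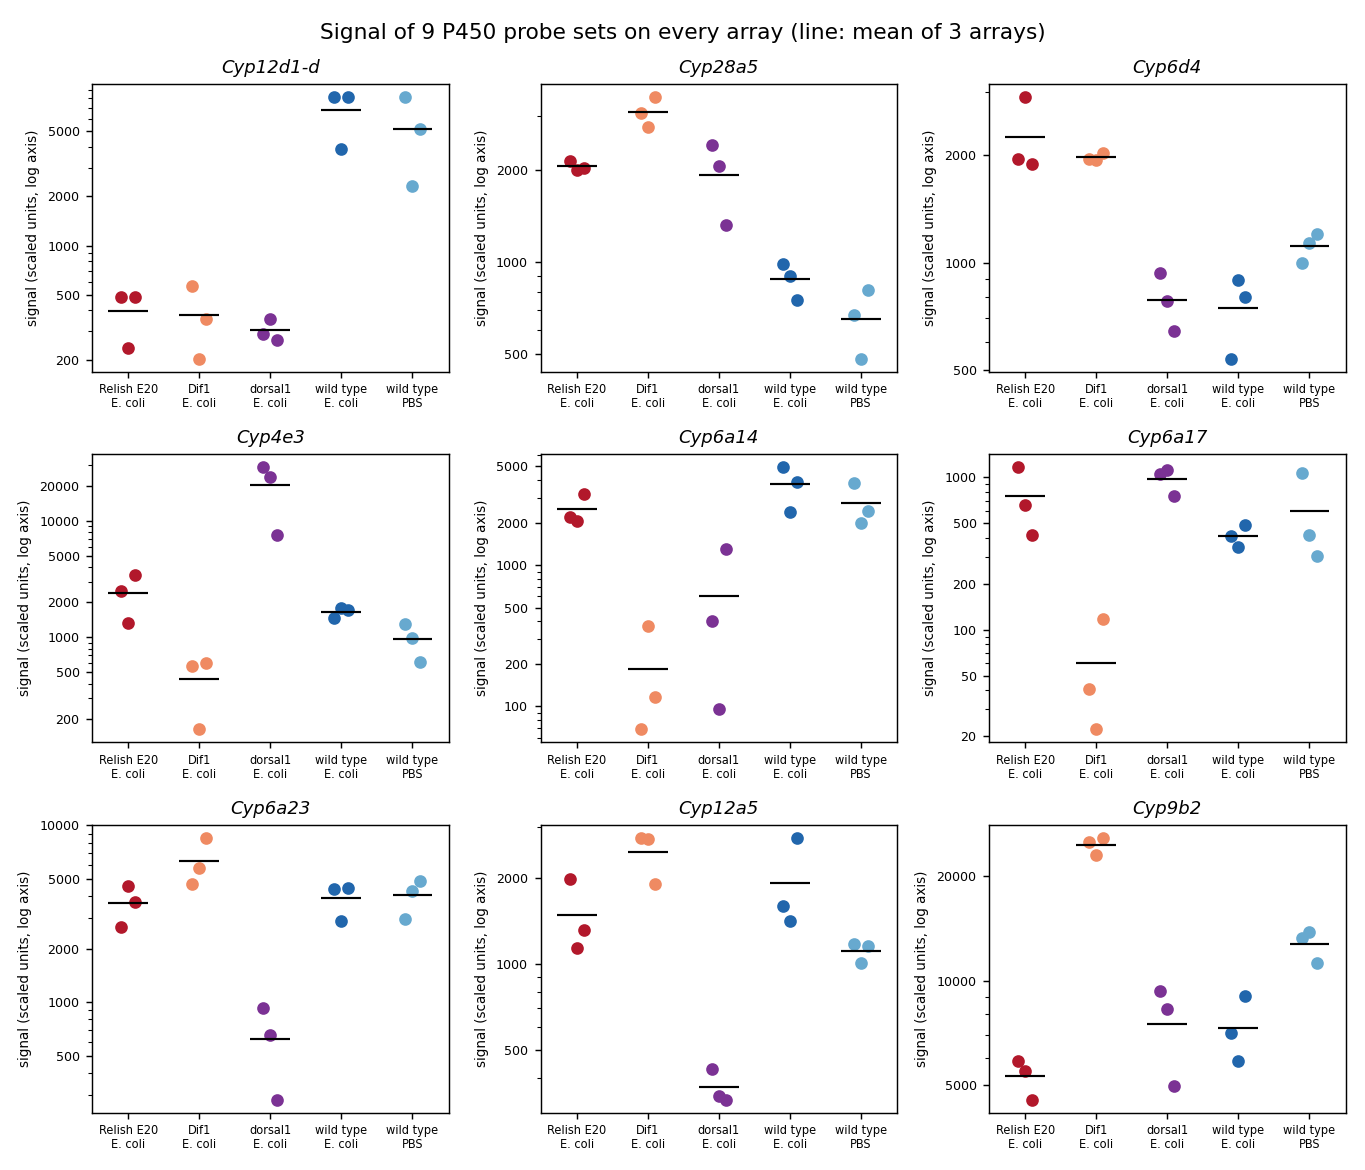
Deposited signals of 9 P450 probe sets on each of the 15 arrays, on a log axis, with group means as bars, by group from Relish mutant to wild type PBS. Cyp12d1-d lies at 202.8 to 565.1 in the mutants and at 2330 to 8166 in wild type, and Cyp4e3 lies at 7583 to 28932 in dorsal mutants.

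The Cyp6a subfamily of the CYP3 clan had 13 tested members, of which 6 were called in at least 1 directed comparison, in directions that depended on the stock. The share called in this way was 34.7% over all tested members and 11.5% over all tested probe sets. Cyp6a14 was at 69.2, 370.3 and 115.8 in Dif mutants and at 403.0, 96.6 and 1306 in dorsal mutants. It was at 2203, 2049 and 3182 in Relish mutants, 4927, 2393 and 3849 in E. coli-injected wild type, and 3798, 1991 and 2404 in PBS-injected wild type. All Dif and dorsal mutant arrays lay below the arrays of the other 3 groups. Against wild type with E. coli the difference was -3.95 ± 0.55 in Dif mutants (adjusted p = 0.00054) and -2.90 in dorsal mutants (0.00612). Relish mutants were higher than Dif mutants by 3.41 (0.00335) and than dorsal mutants by 2.36 (0.0297). The last call was lost without any of the 6 arrays except dorsal mutant replicate 3 (adjusted p up to 0.106).

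Cyp6a13, its neighbour on the chromosome, was higher in Relish and dorsal mutants. It was at 1466, 883.0 and 964.9 in Relish mutants, 590.5, 522.2 and 798.2 in Dif mutants and 1966, 1893 and 943.2 in dorsal mutants, against 259.8, 301.5 and 318.3 in E. coli-injected wild type and 649.7, 156.6 and 444.6 in PBS-injected wild type. Every mutant array was above every wild type E. coli array, while Dif mutants overlapped wild type with PBS. It was higher in dorsal mutants by 2.11 (adjusted p = 0.0037) and in Relish mutants by 1.64 ± 0.37 (0.0271), the second a call lost without any 1 of the 6 arrays, with adjusted p values of up to 0.14. The mean of the mutants was higher than that of both wild type groups by 1.42 (0.00208).

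Cyp6a23 was low in dorsal mutants, at 932.3, 657.4 and 281.9, against 4388, 2898 and 4436 in E. coli-injected wild type. It was at 2663, 4530 and 3677 in Relish mutants, 4636, 5768 and 8523 in Dif mutants and 2950, 4256 and 4883 in PBS-injected wild type. The dorsal mutant arrays lay below all others. The difference was -2.60 ± 0.34 from wild type (adjusted p = 0.000332), and Relish and Dif mutants were higher than dorsal mutants by 2.49 (0.000773) and 3.26 (5.84e-05).

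Cyp6a17, known for a part in temperature preference, was low in Dif mutants, at 40.7, 22.3 and 118.1, against 408.6, 345.8 and 486.8 in E. coli-injected wild type. It was at 1162, 660.3 and 420.6 in Relish mutants, 1057, 1122 and 757.6 in dorsal mutants and 1072, 415.0 and 302.2 in PBS-injected wild type. The Dif mutant arrays lay below all others. Relish mutants were higher than Dif mutants by 2.52 (adjusted p = 0.00398), and Dif mutants lower than dorsal mutants by a difference of -2.96 (0.000528). The difference of Dif mutants from wild type was -1.86 ± 0.41 (0.0207), a call lost without Dif mutant replicate 1 or 2 or wild type E. coli replicate 1 or 3 (adjusted p up to 0.0869).

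Cyp6a18 was at 2441, 2062 and 1440 in Relish mutants, against 727.0, 701.9 and 293.2 in E. coli-injected wild type. The Relish mutant arrays lay above all other arrays of the series, the highest of which was 1111. Against wild type the difference was 1.71 ± 0.32 (adjusted p = 0.00649). Relish mutants were higher than dorsal mutants by 1.34 (0.0331), and the mean of the mutants higher than wild type by 0.75 (0.0482). The first of these 2 calls was lost without any of the 6 arrays except Relish mutant replicate 3, and the second in 11 of 15 omissions of an array.

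Cyp6a8, which phenobarbital and caffeine induce, was at 2476, 3099 and 2957 in Dif mutants and at 1924, 1203 and 218.5 in dorsal mutants. Dif mutants were higher by 1.67 (adjusted p = 0.0477), a call lost without any of the 6 arrays except dorsal mutant replicate 1. Without dorsal mutant replicate 3 the difference was 0.86. Its signals in the other groups were 1333 to 1928 in Relish mutants, 1378 to 2820 in E. coli-injected wild type and 1331 to 1804 in PBS-injected wild type.

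In the Cyp6d subfamily, Cyp6d4 was higher in Relish and Dif mutants, and Cyp6d5 was higher in the mean of the mutants. Cyp6d4 was at 1947, 2915 and 1883 in Relish mutants and at 1956, 1939 and 2026 in Dif mutants, against 933.2, 782.2 and 644.6 in dorsal mutants, 538.2, 893.7 and 799.9 in E. coli-injected wild type and 996.2, 1138 and 1200 in PBS-injected wild type. The Relish and Dif mutant arrays lay above those of the other 3 groups. It was higher than in wild type by 1.50 ± 0.24 in Relish mutants (adjusted p = 0.00157) and 1.34 in Dif mutants (0.00407), and higher than in dorsal mutants by 1.41 (0.00329) and 1.26 (0.00545). The mean of the 3 mutants was higher than wild type by 0.70 (0.014). The dorsal mutant arrays, however, overlapped wild type with E. coli and lay below wild type with PBS.

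Cyp6d5 was at 9430, 11388 and 12796 in Relish mutants, 9687, 13394 and 12596 in Dif mutants and 16372, 11446 and 12245 in dorsal mutants. Wild type had 7729, 5611 and 7213 with E. coli and 7850, 5523 and 7894 with PBS. All 9 mutant arrays were above all 6 wild type arrays. The mean of the mutants was higher by 0.79 ± 0.14 (adjusted p = 0.00309). Against wild type with E. coli the call was made in dorsal mutants (0.95, adjusted p = 0.0228) and was lost without dorsal mutant replicate 1 or wild type E. coli replicate 2 or 3. Separation of 9 mutant from 6 wild type arrays was found for 3 members, Cyp12d1-d, Cyp6d5 and Cyp28a5, which is 4.0%, against 0.98% of all tested probe sets (0.543% higher, 0.438% lower).

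Of the other Cyp6 members, Cyp6g1 was at 4525, 4195 and 6285 in dorsal mutants, against 1579, 973.9 and 1650 in E. coli-injected wild type. It was also at 1744, 1270 and 2316 in Relish mutants, 6196, 2619 and 2436 in Dif mutants and 5437, 2236 and 3086 in PBS-injected wild type. Dorsal mutants did not overlap wild type with E. coli and overlapped wild type with PBS. Against wild type with E. coli the difference was 1.79 ± 0.36 (adjusted p = 0.00909), and the call was lost without wild type E. coli replicate 2 (0.0638). Relish mutants were lower than dorsal mutants (difference -1.47, adjusted p = 0.037), a call lost without any of the 6 arrays except Relish mutant replicate 3. Cyp6u1 was at 87.1, 82.2 and 284.4 in Dif mutants and at 575.7, 546.8 and 620.5 in dorsal mutants (difference -1.62, 0.0205), with 479.1 to 567.6 in Relish mutants, 372.7 to 547.2 in E. coli-injected wild type and 218.0 to 729.3 in PBS-injected wild type, and that call was lost without Dif mutant replicate 1 or 2 or dorsal mutant replicate 1 or 2.

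In the Cyp28 family, whose members in Drosophila mettleri are induced by cactus alkaloids, Cyp28a5 was higher in all 3 mutants. Its signals were 2138, 2000 and 2028 in Relish mutants, 3063, 2772 and 3472 in Dif mutants and 2420, 2056 and 1320 in dorsal mutants, against 989.7, 901.8 and 751.8 in E. coli-injected wild type and 670.8, 484.6 and 808.9 in PBS-injected wild type. No mutant array overlapped a wild type array. The difference from wild type with E. coli was 1.16 in Relish mutants (adjusted p = 0.0145), 1.73 in Dif mutants (0.00054) and 1.03 in dorsal mutants (0.0242), and the mean of the mutants was higher than both wild type groups by 1.51 (1.59e-05). The Relish call was lost without Relish mutant replicate 1 or wild type E. coli replicate 3, and the dorsal call without dorsal mutant replicate 1 or 2 or wild type E. coli replicate 2 or 3.

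Cyp28d2 was lower in Dif mutants, at 38.3, 453.8 and 198.2, against 574.5, 1898 and 1967 in E. coli-injected wild type. Relish mutants had 445.0, 1229 and 1300, dorsal mutants 384.3, 168.9 and 196.6, and wild type with PBS 614.8, 2026 and 2531. In each of Relish mutants and both wild type groups, 1 array was at 445.0 to 614.8 and the other two at 1229 or above. The low array was replicate 1 in each of these groups. The Dif mutant difference was -2.41 ± 0.59 (adjusted p = 0.0354) and was lost without Dif mutant replicate 1 or 3 or wild type E. coli replicate 2 or 3. The mean of the mutants differed from wild type by -1.76 (0.0126). Relish mutants, however, overlapped both wild type groups. In dorsal mutants Cyp28d2 differed from wild type with E. coli by -2.12, which missed the threshold (adjusted p = 0.0573). Its neighbour Cyp28d1, which is linked to nicotine tolerance, was at 2299, 2124 and 1307 in Dif mutants and at 5179, 7128 and 3679 in dorsal mutants (difference -1.43, adjusted p = 0.0208). Its signals were 2385 to 3054 in Relish mutants, 1993 to 3988 in E. coli-injected wild type and 1841 to 4566 in PBS-injected wild type. That call was lost without Dif mutant replicate 2 or 3 or dorsal mutant replicate 1 or 2.

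In the Cyp9 family, the Cyp9b2 probe set 142222_at was high in Dif mutants. It was at 24943, 22987 and 25715 there, 5895, 5515 and 4555 in Relish mutants, 9324, 8288 and 4974 in dorsal mutants, 7084, 5860 and 9033 in E. coli-injected wild type and 13234, 13796 and 11245 in PBS-injected wild type. The Dif mutant arrays lay above all others. Dif mutants differed from wild type with E. coli by 1.75 ± 0.23 (adjusted p = 0.000319), Dif mutants were higher than dorsal mutants by 1.74 (0.000334), and Relish mutants were lower than Dif mutants by a difference of -2.20 (4.35e-05). The second Cyp9b2 probe set, 141851_at, was also highest in Dif mutants, at 735.3, 854.0 and 633.4, and Relish mutants, at 227.9, 109.3 and 324.6, were lower than these (-1.51, 0.0233). The other arrays of this probe set lay at 244.1 to 441.9. That call was lost without Dif mutant replicate 1 or 2 or Relish mutant replicate 1 or 2. In 141851_at Dif mutants missed the threshold against wild type with E. coli (0.80, adjusted p = 0.212) and against dorsal mutants (1.09, 0.0519).

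The Cyp9f2 probe sets were both higher in dorsal mutants than in E. coli-injected wild type. The probe set 153031_at was at 12927, 9826 and 7178 in dorsal mutants and 4609, 4898 and 6072 in wild type (difference 0.90, adjusted p = 0.035). The probe set 149768_s_at was at 10489, 7712 and 6504 in dorsal mutants and 4472, 4158 and 5344 in wild type (0.79, 0.0417). Dorsal mutants did not overlap wild type with E. coli in either. They overlapped wild type with PBS in both, at 7450, 4940 and 6468 for 153031_at and 7793, 6005 and 6016 for 149768_s_at. In 149768_s_at the arrays with E. coli lay below those with PBS (difference -0.49, adjusted p = 0.954). Relish and Dif mutants were at 5767 to 8402 for 153031_at and 4976 to 6650 for 149768_s_at. Both calls were lost without any of the 6 arrays except dorsal mutant replicate 3.

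In the CYP4 clan, Cyp4e3 had group means up to 45.6-fold apart. This gene is expressed in Malpighian tubules and linked to permethrin tolerance. Its signals were 28932, 24063 and 7583 in dorsal mutants, 563.4, 163.3 and 600.6 in Dif mutants and 2479, 1335 and 3427 in Relish mutants, against 1459, 1778 and 1710 in E. coli-injected wild type and 1296, 995.8 and 612.0 in PBS-injected wild type. The dorsal mutant arrays lay above all others and the Dif mutant arrays below all others. The difference from wild type with E. coli was 3.34 ± 0.47 in dorsal mutants (adjusted p = 0.000632) and -1.86 ± 0.47 in Dif mutants (0.0401), and Dif mutants differed from dorsal mutants by -5.21 (1.33e-05). Relish mutants were higher than Dif mutants by 2.30 (0.0199) and lower than dorsal mutants by a difference of -2.91 (0.0026).

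Without dorsal mutant replicate 3, the Cyp4e3 difference of dorsal mutants from wild type was 3.94. The Dif mutant call against wild type was lost without any of the 6 arrays except Dif mutant replicate 3 (adjusted p up to 0.177), and the call of Relish against Dif mutants without Dif mutant replicate 2 or Relish mutant replicate 1 or 3. The calls that involve dorsal mutants were kept without any single array. Cyp4e2 was at 9085, 9120 and 5616 in dorsal mutants, 3878, 4177 and 3832 in Dif mutants, 5080, 6303 and 7650 in Relish mutants, 5161, 3476 and 3585 in E. coli-injected wild type and 7017, 6105 and 4791 in PBS-injected wild type. The dorsal mutant arrays overlapped Relish mutants and wild type with PBS. Dorsal mutants were higher than wild type by 0.94 (adjusted p = 0.0342), and Dif mutants lower than dorsal mutants (-0.96, 0.025). The first call was lost without dorsal mutant replicate 1 or 2 or wild type E. coli replicate 2 or 3, and the second without any of the 6 arrays except dorsal mutant replicate 3.

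Cyp4p1 was at 155.4, 141.5 and 135.3 in Dif mutants, 1265, 1229 and 468.0 in dorsal mutants and 1043, 468.5 and 537.4 in E. coli-injected wild type, with 213.7 to 458.5 in Relish mutants and 420.9 to 573.6 in PBS-injected wild type. The Dif mutant arrays lay below all others. Dif mutants were lower than dorsal mutants (-2.14, adjusted p = 0.00325) and than wild type (-1.69 ± 0.38, 0.0201), the second a call lost without Dif mutant replicate 2 or 3 or wild type E. coli replicate 1. Cyp4d8 was at 375.6, 372.3 and 887.2 in Dif mutants and at 1518, 1632 and 936.4 in dorsal mutants (-1.27, 0.0172), with 1065 to 1126 in Relish mutants, 738.1 to 989.1 in E. coli-injected and 1015 to 1208 in PBS-injected wild type, a call lost without Dif mutant replicate 1 or 2 or dorsal mutant replicate 1 or 2. Cyp4ac1, called by the F test alone, was at 260.1, 265.3 and 620.1 in Dif mutants and at 1095, 1054 and 1271 in PBS-injected wild type, the lowest and highest group.

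Cyp4g1, the oenocyte enzyme that completes the synthesis of cuticular hydrocarbons, was lower in dorsal mutants. It was at 5208, 5271 and 4480 there, against 11822, 9158 and 9949 in E. coli-injected wild type. Relish mutants had 9107, 9321 and 10289, Dif mutants 7414, 6848 and 7175, and wild type with PBS 10642, 7071 and 7181. The dorsal mutant arrays lay below all others. The difference from wild type was -1.03 ± 0.19 (adjusted p = 0.00477), and Relish mutants were higher than dorsal mutants by 0.93 (0.0129). With arrays of 1 title number averaged, both calls were lost (adjusted p = 0.0592 and 0.0644), the second also without the variance trend (0.063) and with the arrays of these groups alone (0.0617). Of the 4 tested probe sets of the oenocyte and fatty acid elongation list, Cyp4g1 was the sole one called. The summed signal of that list, which holds Cyp4g1 itself, was 5055 to 5909 in dorsal mutants and 9953 to 12956 in E. coli-injected wild type. Cyp4g1 made up most of this sum, at 5208 of 5902 on dorsal mutant replicate 1 and 11822 of 12956 on wild type E. coli replicate 1. The sum therefore largely repeats the Cyp4g1 signal, and the part of oenocyte number in the Cyp4g1 result was not tested.

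In the CYP2 clan, Cyp305a1 was called for the mean of the mutants against both wild type groups (0.67, adjusted p = 0.0436), at 613.1 to 869.4 in Relish, 661.3 to 803.4 in Dif and 381.2 to 731.7 in dorsal mutants, against 300.8 to 410.2 in E. coli-injected wild type and 357.7 to 520.9 with PBS. That call was lost in 12 of 15 omissions of an array. Cyp18a1, which inactivates ecdysteroids, was called in no comparison and lay at 104.1 to 463.0 in the mutants and 218.7 to 472.1 in wild type. Cyp303a1, needed for sensory bristles, was likewise not called.

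**Figure D4:**
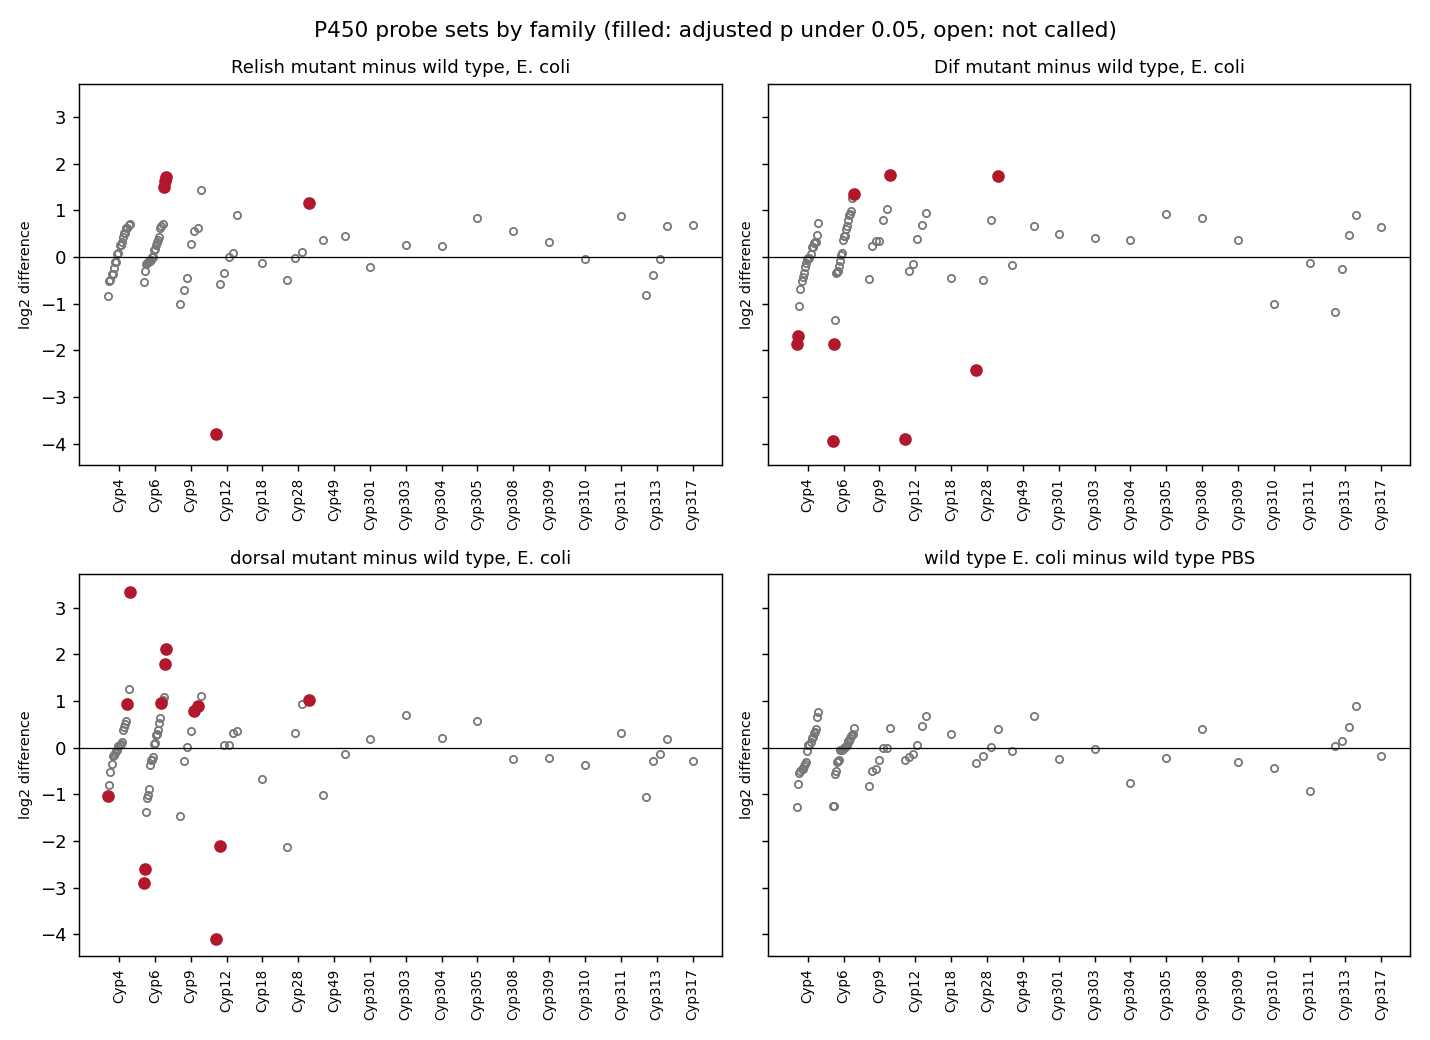
Difference on the log2(signal + 80) scale of each tested P450 probe set, by family, in 4 comparisons: Relish, Dif and dorsal mutants against wild type with E. coli, and E. coli against PBS in wild type. Filled points are called at an adjusted p under 0.05, and the E. coli against PBS panel has none.

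Further members with a known role were not called in any comparison. Cyp6a2, linked to DDT resistance, was at 563.6, 136.1 and 103.9 in dorsal mutants and at 575.7 to 829.0 in E. coli-injected wild type, a difference of -1.37 ± 0.60 (adjusted p = 0.271). Cyp6g2, which gives resistance when overexpressed, was at 663.8, 537.7 and 396.6 in Dif mutants and at 32.3 to 314.3 in E. coli-injected wild type, a difference of 1.33 ± 0.51 (0.203). Cyp6w1, linked to DDT resistance, overlapped between all groups, with differences from wild type of 0.00 to 0.53 in Relish and dorsal mutants and -0.32 in Dif mutants. Cyp6a20 (male aggression), Cyp6t3 (ecdysone production), Cyp301a1 (adult cuticle), Cyp4d21 (a male-specific enzyme), Cyp4g15 (a close relative of Cyp4g1), Cyp6d2 and Cyp310a1 were also without a call, and Cyp6v1 was not tested.

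Of 83 symbols of that Cyp form in the RefSeq gene table of the Release 6 assembly, 43 lie in 15 runs of direct neighbours. Of these 43, 42 are genes of the set. In the longest run, of 9 genes, Cyp6a17 was lower in Dif mutants and its next neighbour Cyp6a23 lower in dorsal mutants. In Dif mutants Cyp6a23 differed from wild type by 0.66, and in dorsal mutants Cyp6a17 differed by 1.09, neither called. In the pair of Cyp6a14 and Cyp6a13, dorsal mutants were lower in the first and higher in the second. In the run of Cyp4p2, Cyp4p1 and Cyp4p3, Cyp4p1 alone was called against wild type, and in the pair of Cyp12a5 and Cyp12a4 Cyp12a5 alone.

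**Figure D5:**
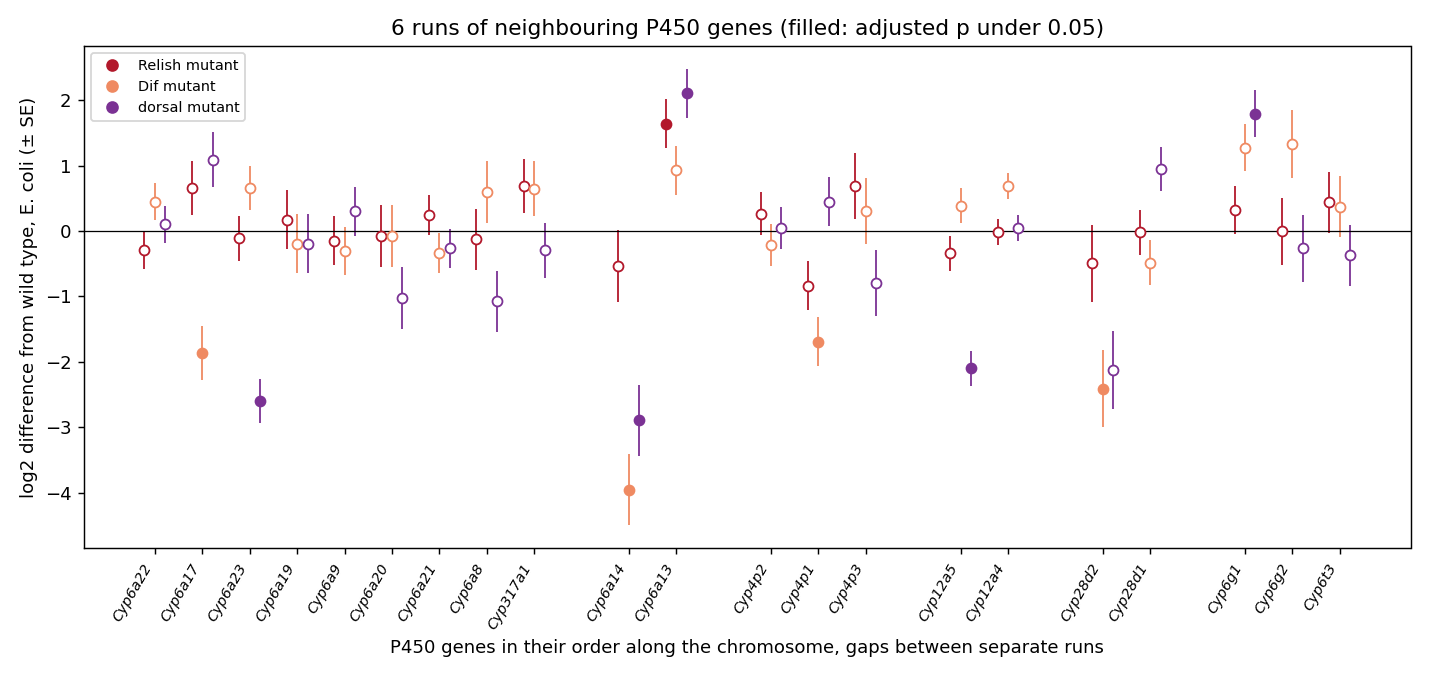
Difference from wild type with E. coli, on the log2(signal + 80) scale with its SE, of the genes in 6 runs of neighbouring P450 genes, in Relish, Dif and dorsal mutants. Filled points are called, and neighbours such as Cyp6a14 and Cyp6a13 lie on opposite sides of 0 in dorsal mutants.

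Electron donors and regulators of P450s were looked at from lists chosen with earlier results of these data known. Of 6 tested probe sets of redox partners, 1 was called in dorsal mutants against wild type with E. coli. The background was 3.52% of all tested probe sets there and 4.18% for the mean of the mutants. The called gene was Cyt-b5, which passes electrons to P450s, and it was lower. It was at 3400, 3230 and 2091 in dorsal mutants and 4787, 6643 and 5650 in E. coli-injected wild type (difference -0.97, adjusted p = 0.037), with 5141, 6491 and 7104 in PBS-injected wild type, and the mean of the mutants differed from wild type by -0.67 (0.0221). Neither the 8 directed comparisons nor the F test called any of 3 probe sets for ecdysone synthesis genes (sad, shd and sro). These symbols lack the Cyp form, so any P450 among sad, shd and sro is outside the set. None of 10 probe sets for regulators of detoxification was called in these tests. Of all tested probe sets, 11.5% were called in at least 1 directed comparison and 7.31% by the F test. Among 14 probe sets of ecdysone response genes, 1 for br, an early response gene, was higher in dorsal mutants than in E. coli-injected wild type (1.48, adjusted p = 0.0294) and lower in Dif than in dorsal mutants (-1.60, 0.0155). The backgrounds were 3.52% and 5.18% of all tested probe sets.

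Glutathione S-transferases, which conjugate the products of P450s, had 36 tested probe sets. Against wild type with E. coli, 2 of 36 were higher and 1 lower in Relish mutants (background 1.88% of all tested probe sets). In Dif mutants 2 were higher and none lower (background 2.68%), and in dorsal mutants 2 higher and 5 lower (background 3.52%). GstE1 was higher in Relish mutants (2.86, adjusted p = 4.64e-05), GstD5 in Dif mutants (3.39, 0.00112), and GstD7 was lower in dorsal mutants (-3.17, 0.0071). In Dif against dorsal mutants, 8 were higher and 1 was lower (background 5.18%). No probe set of this family was called for E. coli against PBS (background 0.158%).

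Markers of larval tissues were also compared between groups. Against wild type with E. coli, 1.88%, 2.68% and 3.52% of all tested probe sets were called in Relish, Dif and dorsal mutants. For the mean of the mutants 4.18% were called. The summed midgut signal of 10 probe sets was 743653 to 901088 in Relish mutants, 735246 to 893839 in Dif mutants and 662693 to 835869 in dorsal mutants, against 525116 to 778214 in E. coli-injected wild type and 366509 to 733098 with PBS. None of its probe sets was called in a mutant against wild type with E. coli, and Jon25Biii was higher in the mean of the mutants (0.62, adjusted p = 0.0124). The Malpighian tubule sum of 6 probe sets, 5 of them tested, was 3596 to 3925 in Relish mutants, 1845 to 2807 in Dif mutants and 1692 to 2413 in dorsal mutants, against 2034 to 2337 in E. coli-injected wild type and 1957 to 2340 with PBS. The tubule gene salt was higher in Relish mutants than in wild type (1.15, 0.0363).

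The fat body sum of 3 probe sets was 148143 to 283817 in Relish, 141483 to 301215 in Dif and 218646 to 350435 in dorsal mutants, against 131392 to 168777 in E. coli-injected wild type and 102434 to 158678 with PBS, and none was called. Summed salivary glue signals of 6 probe sets were 2351 to 387409 in Relish, 41824 to 358306 in Dif and 259903 to 539742 in dorsal mutants, against 5423 to 221080 in E. coli-injected wild type and 58693 to 161767 with PBS. The dorsal mutant arrays lay above all 6 wild type arrays in this sum, while Relish and Dif mutants overlapped wild type. Sgs4 alone of these probe sets was called, and it was higher in all 3 mutants (6.22 in Relish, 6.21 in Dif and 8.35 in dorsal mutants, adjusted p = 0.00407, 0.00414 and 0.000354). The hemocyte sum of 6 probe sets was 27391 to 33674 in Relish, 12519 to 14223 in Dif and 12926 to 15812 in dorsal mutants, against 6496 to 10631 in E. coli-injected wild type and 8212 to 13328 with PBS. Relish mutants lay above all others in this sum, and Dif and dorsal mutants overlapped wild type with PBS. Against wild type with E. coli, 2 of these probe sets were higher in Relish mutants, 2 in Dif mutants and 3 in dorsal mutants. None was lower, and the backgrounds were 1.88%, 2.68% and 3.52% of all tested probe sets. PPO1, a prophenoloxidase, was called in all 3 mutants. Its differences were 2.52 in Relish, 1.15 in Dif and 0.93 in dorsal mutants (adjusted p = 1.76e-05, 0.0166 and 0.0431). Between mutants, 2 hemocyte probe sets were higher in Relish than in Dif mutants (background 1.15%). In Relish against dorsal mutants 2 were higher and 1 lower (background 3.05%), and in Dif against dorsal mutants 1 was lower (background 5.18%). The muscle gene up had 1 probe set higher in Relish mutants (1.77, 0.0474) and another lower in dorsal mutants (-0.91, 0.0327), and no probe set of the testis list was called. The part of tissue proportions, and of the larval stage at injection, in the P450 results was not tested.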

How the data were processed

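Whole-larva RNA was measured on 15 Affymetrix arrays (the first Drosophila genome array). The deposited values are signal intensities on a linear scale, which the authors made with Microarray Suite 5.0 at default settings and global scaling, per the labels' descriptions. Of 14010 probe sets, 44 controls were left out. Symbols came from the platform annotation (12443 probe sets with exactly 1), and the symbols of all 85 P450 probe sets matched the RefSeq table of the Release 6 assembly. No detection calls were used, so a low signal may be background, and the number of arrays limits the precision. Families were assigned to clans from general knowledge.

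Signals were analysed as log2(signal + 80) where at least 3 arrays reached 160. One group-means model was fitted to all 15 arrays with limma 3.58.1 in R 4.3.3 (lmFit, eBayes with a variance trend), and p-values were adjusted by Benjamini-Hochberg over 11427 probe sets. The fit was tested on simulated data. The P450 set, the gene lists and the tests were chosen with earlier results of these data known. Text names every P450 probe set called in at least 1 comparison, the members with a listed role, and up to 3 called genes with the largest difference per other list and comparison. Alternatives changed the pseudocount, the filter, the normalization, the variance trend, array weights, the arrays used, blocks by replicate or title number, and arrays left out in turn. Replicate numbers in the source names were not treated as pairs in the main fit. Some same-numbered arrays deviated together, and whether they shared a batch was not tested.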

Additional observations from a re-analysis of the deposited data

How the results depend on the processing

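Counts of called P450 probe sets moved by over 1.5 times in 24 of 169 alternatives, and no called member changed direction in 1143 recomputed values, of which 216 lost the call. Averaging arrays that share a title number, which leaves 12 samples, gave 3 calls in Relish mutants against wild type, 5 in Dif mutants, 4 in dorsal mutants, 4 in Relish against dorsal mutants, 7 in Dif against dorsal mutants, 5 for the mean of the mutants and 9 by the F test; whether these arrays repeat 1 pool was not tested. Without the variance trend, 8 were left in dorsal mutants against wild type and 4 in Relish against dorsal mutants. With only the arrays of the groups compared, which are fewer samples, 3 were left in Relish against dorsal mutants and 7 in Dif against dorsal mutants. Array weights gave 16 for the mean of the mutants, and the cause was not tested for the variance trend or the weights. Leaving out 1 array at a time gave 0 calls each time for E. coli against PBS, 3 to 5 for Relish mutants, 6 to 9 for Dif mutants, 7 to 15 for dorsal mutants, 3 to 7 for Relish against Dif mutants, 5 to 8 for Relish against dorsal mutants, 7 to 17 for Dif against dorsal mutants, 7 to 11 for the mean of the mutants and 16 to 22 by the F test. Of the 63 calls, 37 were kept in every such omission and 30 under every alternative run. Except for the averaging, the share of all tested probe sets called under these alternatives is not given, so the counts lack a background. Quantile normalization turned the split of the mean of the mutants to 5 higher and 4 lower, against 6 and 3, and moved the median of all probe sets by at most 0.10.

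The deviations of same-numbered replicates of different groups correlated at -0.11 to 0.34 in 30 pairs (median 0.03), and 7 were over 0.1, against 6 of 60 pairs with other numbers. The highest was between replicates 1 of both wild type groups, and replicate 2 of wild type with E. coli was over 0.1 with that of each other group. No pairing was used in the main fit, and whether same-numbered arrays shared a batch was not tested. A replicate block gave 0 calls for E. coli against PBS, 5 for Relish, 10 for Dif and 14 for dorsal mutants against wild type, 5, 8 and 13 between the mutants (Relish against Dif, Relish against dorsal, Dif against dorsal), 9 for the mean of the mutants and 19 by the F test. Blocking by title number, an alternative chosen after seeing the data, gave 4, 9 and 9 against wild type in Relish, Dif and dorsal mutants. The share of all tested probe sets called with either block is not given here. Signals near background limit the low members, and groups of 3 arrays were not tested for outlying arrays.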

Other observations

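Against wild type with E. coli, 14 P450 members in Relish mutants, 18 in Dif mutants and 9 in dorsal mutants had groups that did not overlap and no call. With the called ones, 25.3%, 36.0% and 29.3% of the members did not overlap, against 19.4%, 22.4% and 21.7% of all tested probe sets. The members that follow were chosen after their values were seen. Cyp12c1 was at 1132, 1305 and 1412 in Relish mutants and 1546, 1333 and 1096 in Dif mutants, against 532.6, 603.1 and 837.3 in E. coli-injected wild type. The differences were 0.90 ± 0.26 in Relish mutants and 0.94 ± 0.26 in Dif mutants (SE, limma adjusted p = 0.0979 and 0.0654). Cyp12e1 was at 568.0, 568.0 and 548.6 in Relish mutants, below the other 12 arrays, which began at 707.9, and its difference from wild type with E. coli was -0.59 (adjusted p = 0.202). Cyp9h1 was at 253.5, 302.6 and 308.2 in Relish mutants, against 172.6, 13.6 and 27.5 in E. coli-injected wild type (1.43, adjusted p = 0.129).

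With E. coli against PBS, 13 members did not overlap and none was called (17.3%, background 12.0%). Cyp4s3 was at 745.9, 383.0 and 696.4 in E. coli-injected wild type and at 1723, 1430 and 1421 in PBS-injected wild type, a difference of -1.26 ± 0.51 that missed the threshold (adjusted p = 0.909). Cyp6t1 was at 37.5, 99.2 and 57.3 with E. coli and at 217.0, 209.8 and 369.0 with PBS (-1.25, adjusted p = 0.396).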
